A study of Homo sapiens with 18 samples.

Results

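Polycomb repressive complex 2 (PRC2) was followed at the level of its mRNAs, through 10 genes of the 57736 in the count table. They were chosen by name, as EZH1, EZH2, SUZ12, EED, RBBP4, RBBP7, MTF2, PHF19, JARID2 and AEBP2. RNA-seq covered cells labelled A1847, described as a high-grade serous ovarian cancer line that expresses CARM1, in 3 genotypes: control cells labelled wild type for CARM1 and XBP1, CARM1 knockout cells made with a lentiviral CRISPR guide, and XBP1 knockdown cells made with a lentiviral short hairpin RNA. Each genotype received tunicamycin (5 μg/ml) or vehicle for 8 h, in 3 replicates, which gave 6 groups and 18 libraries. Tunicamycin blocks protein glycosylation in the endoplasmic reticulum (ER) and so causes ER stress. CARM1 is an arginine methyltransferase that acts as a transcriptional coactivator, and XBP1, once spliced, is a transcription factor of the unfolded protein response. The control vector of the wild-type cells, and whether the knockout cells were a clone or a pool, are not given in the sources used here. The labels do not say that replicates came from separate cultures, so p-values measure only the spread between these libraries, which may be technical. Knockout and knockdown cells were compared with the same control libraries.

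PRC2 places methyl groups on H3K27, a mark that keeps genes silent. EZH2 or its paralog EZH1 is the catalytic subunit. SUZ12 is the scaffold, EED binds the finished mark and stimulates the enzyme, and RBBP4 or RBBP7 binds histones. Accessory proteins then define separate forms of the complex, one with a Polycomb-like protein such as MTF2 or PHF19 and another with JARID2 and AEBP2. EZH2 is typically high in dividing cells, and in ovarian cancer it has been studied as a drug target, among others in tumours with high CARM1.

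The library totals were 9367462 to 13917212 counts, and the 10 genes had 147 to 4366 counts in a library, so that all 10 passed the filter on low counts with 17317 genes in all. Levels are given as CPM, that is counts relative to the library total, scaled with edgeR's TMM factors over the 18 libraries. They compare libraries, not genes. With vehicle, CARM1 had 162 ± 2.69 CPM (SD, n = 3) in control and 74.2 ± 3.11 CPM (SD, n = 3) in knockout libraries, so its mRNA was lower but present. XBP1 had 46.0 ± 4.50 CPM (SD, n = 3) in control and 25.4 ± 1.25 CPM (SD, n = 3) in knockdown libraries with vehicle. With tunicamycin XBP1 had 149.8 ± 3.02 CPM in control and 71.6 ± 2.35 CPM in knockdown libraries (SD, n = 3 each). Vehicle-treated knockout libraries had 33.9 ± 6.49 CPM of XBP1, and vehicle-treated knockdown libraries 190.0 ± 2.49 CPM of CARM1 (SD, n = 3 each). The CARM1 knockout libraries stood apart from the other 12. Across genes, log2 CPM correlated at 0.731 to 0.769 between control and knockout libraries, at 0.961 to 0.987 between control and knockdown libraries and at 0.963 to 0.989 among control libraries (a description across 17317 genes that share depth and processing). PAX8, a transcription factor that marks most serous ovarian carcinomas, had 0 to 2 counts in the 6 control libraries, 465 to 840 in the knockout libraries and 0 to 2 in the knockdown libraries. The epithelial keratin KRT7 had 0 to 12 counts, 3576 to 5166 and 0 to 13 in the same order, while COL1A2 (8503 to 12954, 0 to 34 and 6840 to 12090) and PDGFRA (2021 to 3004, 0 to 15 and 2636 to 3140), both mesenchymal genes, ran the other way. COL1A1, a collagen of the same list, had 103 to 259, 2205 to 6247 and 54 to 138 counts and so ran with PAX8. The epithelial keratins KRT18 (3279 to 5479, 12965 to 18887 and 1435 to 2542 counts) and KRT8 (700 to 896, 6208 to 9436 and 251 to 439) were present in every library, EPCAM had 22 to 52, 157 to 266 and 22 to 42 counts, and KRT19 had 5 to 44, 0 and 0 to 4. Of 10 ovarian carcinoma markers, MUC16 was at 0 in every library, and WT1 and ESR1 had at most 13 and 4 counts in any library. The summed level of the 8 ovarian markers tested was 311 to 332 CPM in vehicle-treated control cells, 2679 to 2773 in vehicle-treated knockout cells and 131 to 144 in vehicle-treated knockdown cells. In vehicle-treated control cells the keratins KRT18 and KRT8 made up most of this sum (means of 260 and 58.4 CPM). CDH1, also of this list, had 0 to 6 counts in control, 8 to 23 in knockout and 0 to 6 in knockdown libraries. PAX8, KRT7, WT1, CDH1, MUC16 and ESR1 were thus at or near 0 in the control and knockdown libraries, while KRT8 and KRT18 were not. All libraries carry the same cell line label, and whether they came from 1 line was not tested. The part of these differences in the results on knockout cells was not tested, and with 1 knockout population the loss of CARM1 and any other difference between these cells and the control cells cannot be told apart. No knockout library enters the fits of control and knockdown cells, but all 18 libraries set which genes were tested and the scaling of the CPM values.

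The promoters of the genes on which the results turn are shown as RefSeq gives them on GRCh38.p14, 300 bases around a start site, 5′ to 3′ on the strand of the gene. All 10 genes matched, with 15 windows in all. Searched on both strands were the letters of the XBP1s core, ACGTCA, and E2F sites (TTTCCCGC, TTTCGCGC, TTTGCCGC or TTTGGCGC), and capitals mark the matches. EZH2 and RBBP4 rose with tunicamycin in control cells, EED fell with it in each genotype, PHF19 was lower in vehicle-treated knockdown cells, and JARID2 differed most between knockout and control cells. The first EZH2 window is chr7:148884242-148884541 (minus strand) and the second chr7:148883436-148883735 (minus strand). The RBBP4 window, the upstream one of a pair, is chr1:32650958-32651257 (plus strand), and that of EED chr11:86244503-86244802 (plus strand). The PHF19 window, the upstream one of a pair, is chr9:120877139-120877438 (minus strand). The JARID2 window, the downstream one of a pair, is chr6:15248605-15248904 (plus strand). For PHF19 and JARID2 the window shown is the one of the pair that held matches.
EZH2, first window: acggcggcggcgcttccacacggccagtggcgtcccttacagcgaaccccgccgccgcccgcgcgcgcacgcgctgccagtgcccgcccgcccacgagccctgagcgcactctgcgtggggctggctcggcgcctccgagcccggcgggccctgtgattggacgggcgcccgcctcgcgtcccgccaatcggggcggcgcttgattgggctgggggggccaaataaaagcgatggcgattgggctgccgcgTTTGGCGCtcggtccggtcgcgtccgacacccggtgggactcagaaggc
EZH2, second window: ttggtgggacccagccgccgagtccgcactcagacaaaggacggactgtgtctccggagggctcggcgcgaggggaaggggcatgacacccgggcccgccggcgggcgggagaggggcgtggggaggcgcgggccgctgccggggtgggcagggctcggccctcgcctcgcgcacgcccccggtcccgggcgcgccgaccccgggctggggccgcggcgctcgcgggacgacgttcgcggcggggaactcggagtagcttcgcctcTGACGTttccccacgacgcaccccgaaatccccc
RBBP4: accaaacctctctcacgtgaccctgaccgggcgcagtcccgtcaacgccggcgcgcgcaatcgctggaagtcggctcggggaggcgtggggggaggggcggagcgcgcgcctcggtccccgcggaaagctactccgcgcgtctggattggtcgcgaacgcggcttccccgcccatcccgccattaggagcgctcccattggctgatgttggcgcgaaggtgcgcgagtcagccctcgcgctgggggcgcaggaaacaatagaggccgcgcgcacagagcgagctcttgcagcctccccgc
EED: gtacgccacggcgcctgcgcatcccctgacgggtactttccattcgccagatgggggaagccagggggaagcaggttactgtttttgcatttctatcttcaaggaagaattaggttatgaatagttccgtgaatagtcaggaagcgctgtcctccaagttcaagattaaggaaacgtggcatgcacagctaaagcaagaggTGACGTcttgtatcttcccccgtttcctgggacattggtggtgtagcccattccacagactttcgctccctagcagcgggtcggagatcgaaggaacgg
PHF19: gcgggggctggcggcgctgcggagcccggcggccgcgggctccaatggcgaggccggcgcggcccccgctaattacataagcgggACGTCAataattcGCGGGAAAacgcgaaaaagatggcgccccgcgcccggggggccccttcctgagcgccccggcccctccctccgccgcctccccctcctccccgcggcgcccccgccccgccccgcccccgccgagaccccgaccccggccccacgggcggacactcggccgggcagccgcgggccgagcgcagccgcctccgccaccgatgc
JARID2: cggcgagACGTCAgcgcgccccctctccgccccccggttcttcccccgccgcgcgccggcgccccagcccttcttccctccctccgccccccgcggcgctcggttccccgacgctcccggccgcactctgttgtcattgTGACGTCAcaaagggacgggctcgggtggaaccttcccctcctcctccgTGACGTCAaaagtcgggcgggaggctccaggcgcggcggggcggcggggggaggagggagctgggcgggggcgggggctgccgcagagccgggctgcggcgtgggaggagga

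The XBP1s core was found in 4 of the 15 windows, those shown for the second EZH2 start and for EED, PHF19 and JARID2, against 7.98% of 35116 RefSeq promoter windows of the same length. The JARID2 window held 5 matches at 3 places, since its TGACGTCA stretches match on both strands. These letters are also those of other basic leucine zipper factors. E2F letters were found in 6 windows, of EZH1, EZH2, SUZ12, MTF2, PHF19 and AEBP2, against 3.31% of all windows. The letters of the ER stress element, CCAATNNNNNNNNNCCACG, were in 0 of the 15 windows and in 0.0769% of all. A match is a description and was not tested for binding. The shares over all windows were not matched for base composition, so these counts do not show an excess. The unprinted JARID2 and PHF19 windows and all those of RBBP4 and RBBP7 held neither set of letters. The positions of genes given next are those on GRCh37, the build of the counts.

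**Figure D1:**
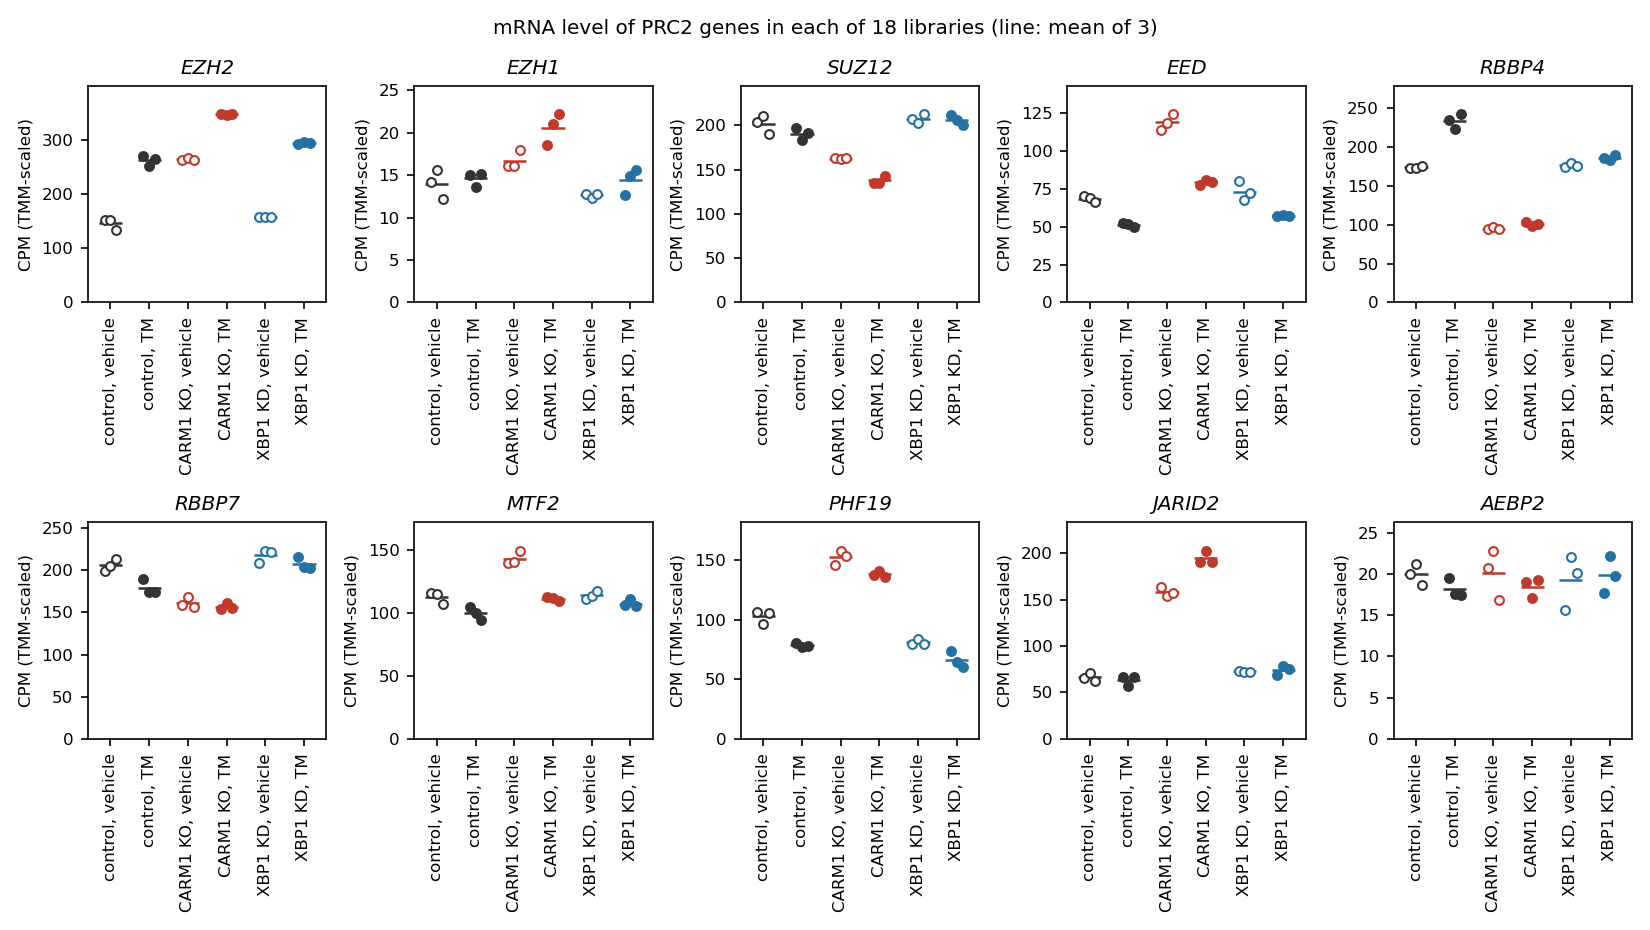
TMM-scaled CPM (y axes, from 0) of the 10 PRC2 genes in each of the 18 libraries, by genotype and treatment (x axes; KO is knockout, KD knockdown, TM tunicamycin; open points vehicle, filled points tunicamycin, lines group means). EZH2 was higher with tunicamycin than with vehicle in all 3 genotypes and EED lower, and JARID2 was higher in all 6 knockout libraries than in the other 12.

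EZH2 (ENSG00000106462, chromosome 7, 148504349 to 148581413, minus strand), the main H3K27 methyltransferase, rose with tunicamycin in every genotype. In control cells it had 152, 152 and 134 CPM with vehicle and 270.3, 251 and 265 CPM with tunicamycin. In CARM1 knockout cells the values were 264, 266 and 263 CPM with vehicle and 347, 346 and 347 CPM with tunicamycin. In XBP1 knockdown cells they were 158, 157 and 157 CPM with vehicle and 292, 297 and 294 CPM with tunicamycin. Within each genotype the ranges of the treatments did not overlap, and untreated knockout cells reached the level of tunicamycin-treated control cells, whose range theirs overlapped. The log2 fold change with tunicamycin was 0.86 (standard error 0.0611, adjusted p = 9.08e-09, edgeR's quasi-likelihood test with Benjamini-Hochberg adjustment over all genes, as in all adjusted p-values here) in control cells. It was 0.43 (standard error 0.0335, edgeR adjusted p = 7.12e-10) in knockout cells and 0.89 (standard error 0.0426, edgeR adjusted p = 2.56e-10) in knockdown cells. The response was smaller in knockout than in control cells (log2 difference −0.45, standard error 0.069, edgeR adjusted p = 6.61e-05), while for knockdown cells the interaction was 0.04 (standard error 0.0729, edgeR adjusted p = 0.876).

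EZH1 (ENSG00000108799, chromosome 17, 40852293 to 40897067, minus strand), the paralog with weaker catalytic activity that is typical of resting cells, was measured at low counts. It had 14.2, 15.6 and 12.2 CPM in control cells with vehicle and 15.1, 13.6 and 15.2 CPM with tunicamycin, which overlapped. The knockout cells had 16.1, 16.0 and 17.98 CPM with vehicle and 18.5, 21.0 and 22.2 CPM with tunicamycin, without overlap. The knockdown cells had 12.8, 12.4 and 12.8 CPM with vehicle and 12.6, 14.9 and 15.6 CPM with tunicamycin, which overlapped. EZH1 rose with tunicamycin in knockout cells (log2 fold change 0.35, standard error 0.1, edgeR adjusted p = 0.00817). Its values in control and knockdown cells, 0.08 (standard error 0.121) and 0.18 (standard error 0.117), did not pass, and neither did the interaction for knockout cells (0.25, standard error 0.156, edgeR adjusted p = 0.289), so a difference in response between genotypes was not detectable.

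SUZ12 (ENSG00000178691, chromosome 17, 30264026 to 30328057, plus strand), the scaffold without which the complex is not assembled, was lower in knockout cells. It had 203, 211 and 191 CPM in control cells with vehicle and 197, 183 and 192 CPM with tunicamycin. The knockout cells had 163, 162 and 163 CPM with vehicle and 135, 135 and 143 CPM with tunicamycin, and all 6 knockout values lay below all 6 control values. The knockdown libraries lay between 201 and 213 CPM over both treatments. SUZ12 fell with tunicamycin in knockout cells (log2 fold change −0.20, standard error 0.0408, edgeR adjusted p = 0.000355). In control and knockdown cells its values were −0.07 and −0.02 (standard errors 0.057 and 0.0457), which did not pass, and the interaction for knockout cells did not pass either (−0.15, standard error 0.0687, edgeR adjusted p = 0.119). The pseudogene SUZ12P1 had 103 to 323 counts in a library against 1423 to 3026 for SUZ12, and was lower in knockout than in control cells with vehicle (log2 fold change −0.99), so the split of reads between both is uncertain.

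EED (ENSG00000074266, chromosome 11, 85912254 to 85989855, plus strand), the reader of the methylated histone tail, fell with tunicamycin in every genotype. It had 70.3, 68.6 and 66.2 CPM in control cells with vehicle and 52.3, 52.0 and 49.5 CPM with tunicamycin. The knockout cells had 114, 118 and 124 CPM with vehicle and 77.4, 80.8 and 79.6 CPM with tunicamycin. The knockdown cells had 79.9, 67.3 and 72.0 CPM with vehicle and 56.8, 57.7 and 57.1 CPM with tunicamycin. The treatments did not overlap in any genotype, and each knockout group lay above the control group of the same treatment. The log2 fold change with tunicamycin was −0.40 (standard error 0.0658) in control cells, −0.55 (standard error 0.0485) in knockout cells and −0.36 (standard error 0.0673) in knockdown cells, with edgeR adjusted p-values of 9.9e-05, 5.8e-09 and 0.000474. Neither interaction passed (−0.16 and 0.05, edgeR adjusted p = 0.15 and 0.891).

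RBBP4 (ENSG00000162521, chromosome 1, 33116743 to 33151812, plus strand) and RBBP7 (ENSG00000102054, chromosome X, 16857406 to 16888485, minus strand) encode paralogous histone-binding proteins that also serve other chromatin complexes, such as the NuRD deacetylase. RBBP4 had 173, 172 and 176 CPM in control cells with vehicle and 235, 223 and 242 CPM with tunicamycin. The knockdown cells had 175, 179 and 175 CPM with vehicle and 186, 183 and 190.0 CPM with tunicamycin. In knockout cells RBBP4 had 93.9, 96.6 and 94.5 CPM with vehicle and 104, 97.9 and 101 CPM with tunicamycin. The vehicle groups of control and knockdown cells overlapped, the 3 tunicamycin-treated control libraries lay above all other libraries, and the 6 knockout libraries lay below all others. RBBP4 rose with tunicamycin in control cells, by a log2 fold change of 0.44 (standard error 0.0537, edgeR adjusted p = 5.05e-06). In knockdown cells the value was 0.07 (standard error 0.0451, edgeR adjusted p = 0.257), and the response differed from that of control cells (interaction −0.36, standard error 0.0649, edgeR adjusted p = 0.00324). In knockout cells the value was 0.12 (standard error 0.0455, edgeR adjusted p = 0.0429). That call was lost in each of 6 fits that left out 1 library of these groups (log2 0.10 to 0.14, edgeR adjusted p = 0.0508 to 0.14). The response in knockout cells also differed from that in control cells (interaction −0.34, standard error 0.0658, edgeR adjusted p = 0.000705), and both interactions use the same control libraries. SYNC, which overlaps the end of RBBP4 on the other strand over 6306 bases, had 7 to 96 counts against 825 to 3183 for RBBP4.

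RBBP7 had 199, 205 and 213 CPM in control cells with vehicle and 189.8, 174 and 174 CPM with tunicamycin. The knockdown cells had 209, 223 and 222 CPM with vehicle and 215, 203 and 203 CPM with tunicamycin. The knockout cells had 159, 168 and 157 CPM with vehicle and 154, 161 and 155 CPM with tunicamycin, below all other libraries. RBBP7 fell with tunicamycin in control cells (log2 fold change −0.19, standard error 0.0565, edgeR adjusted p = 0.0145). Without the third tunicamycin-treated control library the value was −0.17 and the edgeR adjusted p 0.0737. The values in knockout and knockdown cells were −0.01 and −0.08 (standard errors 0.0407 and 0.0481) and did not pass. Neither interaction of RBBP7 passed (0.16 for knockout and 0.11 for knockdown cells, edgeR adjusted p = 0.114 and 0.545). That for knockout cells passed under some alternatives, given below. TXLNG overlaps the end of RBBP7 on the other strand over 5237 bases and had 515 to 2575 counts in a library against 1368 to 3175 for RBBP7. TXLNG was lower in knockout than in control cells with vehicle (log2 fold change −0.97) and rose with tunicamycin in control cells by a log2 fold change of 0.40, opposite to RBBP7. Whether the counting used strand is not given in the sources used here, and without it the reads of these genes cannot be told apart.

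MTF2 (ENSG00000143033, chromosome 1, 93544792 to 93604636, plus strand) and PHF19 (ENSG00000119403, chromosome 9, 123617929 to 123657174, minus strand) are Polycomb-like proteins that bring the complex to chromatin. MTF2 had 115, 115 and 107 CPM in control cells with vehicle and 104, 100.3 and 94.1 CPM with tunicamycin. It had 139, 140.0 and 149 CPM in knockout cells with vehicle and 113, 112 and 109.7 CPM with tunicamycin, and 111, 113 and 117 CPM and then 106, 111 and 106 CPM in knockdown cells. Within each genotype the treatments did not overlap, with tunicamycin lower. MTF2 fell with tunicamycin in knockout cells (log2 fold change −0.32, standard error 0.0444, edgeR adjusted p = 4.05e-06). In control cells the value was −0.16 (standard error 0.0616, edgeR adjusted p = 0.0428). That call was lost without the first or second vehicle-treated or the second or the third tunicamycin-treated control library (log2 −0.17 to −0.13, edgeR adjusted p = 0.067 to 0.184). In knockdown cells the value was −0.09 (standard error 0.0508, edgeR adjusted p = 0.176). Neither interaction of MTF2 passed (−0.18 for knockout and 0.08 for knockdown cells, edgeR adjusted p = 0.0962 and 0.737).

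PHF19 was the gene of the complex that was lower in knockdown cells without stress. It had 107, 96.8 and 106 CPM in control cells with vehicle and 80.5, 77.6 and 77.9 CPM with tunicamycin. The knockdown cells had 79.6, 84.4 and 79.4 CPM with vehicle and 74.1, 64.8 and 60.1 CPM with tunicamycin. In knockout cells it had 146, 158 and 154 CPM with vehicle and 137, 141 and 136 CPM with tunicamycin. Vehicle-treated knockdown cells overlapped tunicamycin-treated control cells, and all 6 knockout libraries lay above the rest. PHF19 fell with tunicamycin in control cells (log2 fold change −0.38, standard error 0.0625, edgeR adjusted p = 0.000115) and in knockdown cells (−0.30, standard error 0.0718, edgeR adjusted p = 0.0038). In knockout cells the value was −0.11 (standard error 0.0424, edgeR adjusted p = 0.0525). The responses of knockout and control cells differed by 0.25 (standard error 0.0733, edgeR adjusted p = 0.0162), a call that was lost without the first vehicle-treated knockout library (0.22, edgeR adjusted p = 0.0556).

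JARID2 (ENSG00000008083, chromosome 6, 15246300 to 15522273, plus strand), which stimulates PRC2 and recruits it to chromatin, had 65.6, 70.8 and 62.9 CPM in control cells with vehicle and 66.2, 57.3 and 66.7 CPM with tunicamycin. The knockout cells had 163, 154 and 157 CPM with vehicle and 191, 203 and 190.1 CPM with tunicamycin. The knockdown cells had 73.4, 72.6 and 71.9 CPM with vehicle and 69.0, 79.0 and 75.2 CPM with tunicamycin. All 6 knockout libraries had at least 154 CPM, and the other 12 had at most 79.0 CPM. JARID2 rose with tunicamycin in knockout cells (log2 fold change 0.33, standard error 0.0415, edgeR adjusted p = 9.38e-07). In control and knockdown cells its values were −0.06 and 0.02 (standard errors 0.0754 and 0.0604), which did not pass, and the response of knockout cells was higher than that of control cells by a log2 difference of 0.37 (standard error 0.0861, edgeR adjusted p = 0.00339).

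AEBP2 (ENSG00000139154, chromosome 12, 19556979 to 19873735, plus strand), a zinc finger protein that works beside JARID2, was the 1 gene of the 10 that passed in none of the 9 comparisons. Its levels lay between 15.6 and 22.8 CPM over all 18 libraries, and every pair of neighbours in the order of the 6 group means overlapped. The means ran from 18.2 ± 1.12 CPM (SD, n = 3) in tunicamycin-treated control cells to 20.1 ± 3.04 CPM (SD, n = 3) in vehicle-treated knockout cells. At 147 to 311 counts in a library, its standard errors were 0.097 to 0.127 in the comparisons of group pairs, against 0.0335 to 0.0611 for EZH2.

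**Figure D2:**
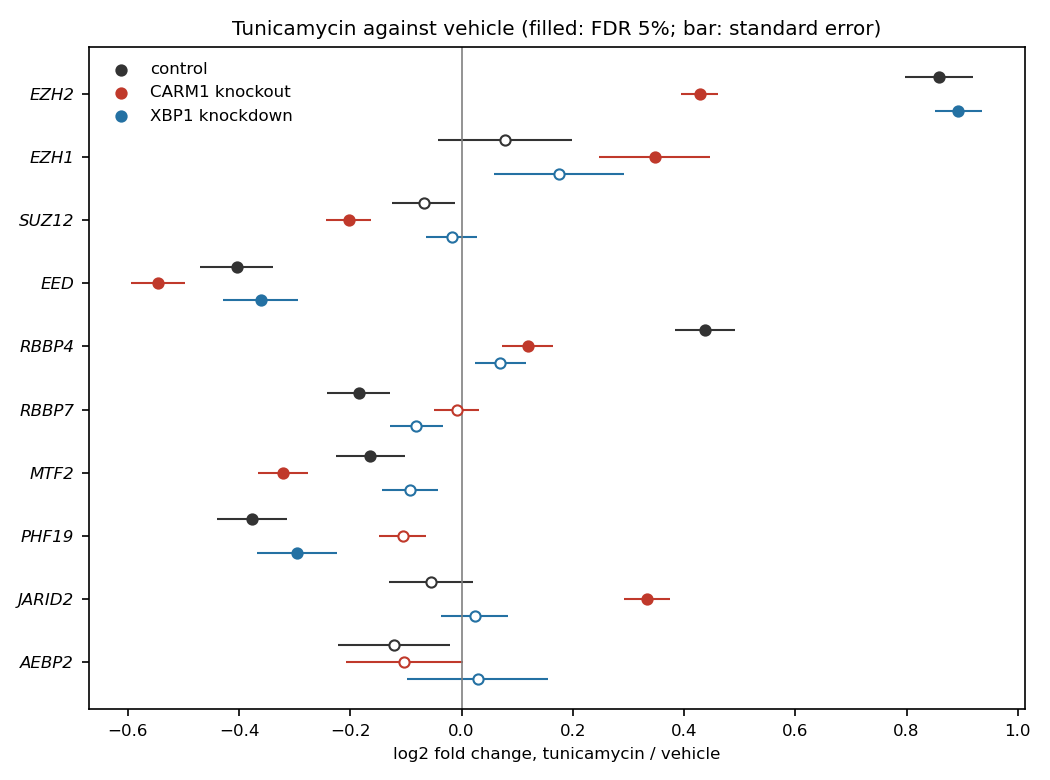
log2 fold change of the 10 PRC2 genes (y axis), tunicamycin over vehicle (x axis), in control, CARM1 knockout and XBP1 knockdown cells. Bars are standard errors and filled points passed an FDR of 5%, and EZH2 lies at 0.86, 0.43 and 0.89 and EED at −0.40, −0.55 and −0.36 in that order.

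Under tunicamycin the 10 genes moved in both directions, as all genes tested did, so this is not a trait of the complex. In control cells 2 of 10 rose, EZH2 and RBBP4, where 22.0% of the genes tested rose, and 4 fell, EED, PHF19, RBBP7 and MTF2, where 19.9% fell. In knockout cells 4 rose (EZH2, EZH1, JARID2 and RBBP4) against 20.6% of all genes, and 3 fell (EED, MTF2 and SUZ12) against 18.8%. The call for RBBP4 in knockout cells was lost in every alternative fit, and by DESeq2 3 of the 10 rose there. In knockdown cells 1 rose (EZH2) against 19.2% of all genes, and 2 fell (EED and PHF19) against 19.0%. Of the 10, EZH2 was the 1 gene that rose, and EED the 1 gene that fell, in all 3 genotypes, whose libraries are separate. How many of all genes tested rose or fell in all 3 genotypes was not counted. The median log2 fold change of the 10 genes was −0.10, −0.06 and 0.00 in control, knockout and knockdown cells, beside a median of all genes of 0.00 in each. RNA per cell and the number of cells cannot be told apart in such bulk values.

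**Figure D3:**
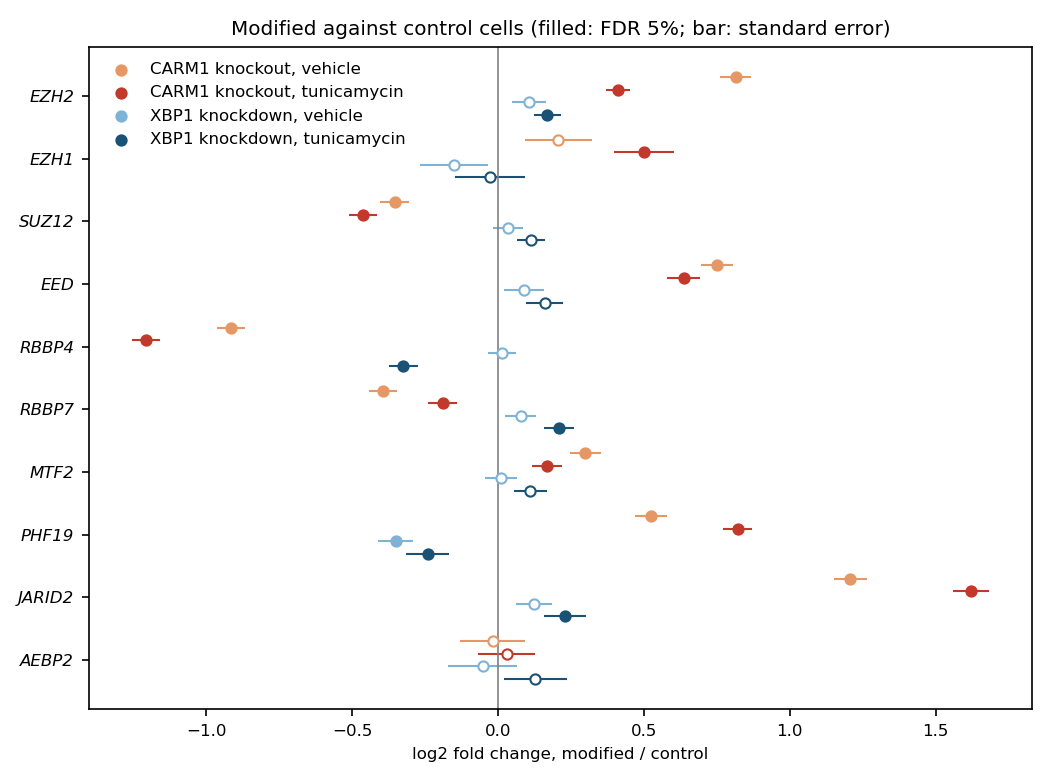
log2 fold change of the 10 PRC2 genes (y axis), modified over control cells (x axis), for CARM1 knockout and XBP1 knockdown cells with vehicle and with tunicamycin. Bars are standard errors and filled points passed an FDR of 5%, and the knockout values run from −1.21 (RBBP4) to 1.62 (JARID2), both with tunicamycin.

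Knockout cells differed from control cells in these genes about as often as in all genes tested. With vehicle 5 of 10 were higher, JARID2, EZH2, EED, PHF19 and MTF2, where 37.5% of all genes tested were higher, and 3 were lower, RBBP4, RBBP7 and SUZ12, where 36.9% were lower. JARID2 was higher by a log2 fold change of 1.21 (standard error 0.057, edgeR adjusted p = 2.45e-11) and EZH2 by 0.81 (standard error 0.0531, edgeR adjusted p = 1.32e-09). EED and PHF19 were higher by 0.75 and 0.52, and MTF2 by 0.30 (standard errors 0.0558, 0.0553 and 0.0528). RBBP4 was lower by a log2 fold change of −0.92 (standard error 0.0477, edgeR adjusted p = 8.15e-11), RBBP7 by −0.39 and SUZ12 by −0.36 (standard errors 0.0487 and 0.0491). EZH1 had a value of 0.21 (standard error 0.116, edgeR adjusted p = 0.119). It passed without the second vehicle-treated control library (0.31, edgeR adjusted p = 0.0381).

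With tunicamycin 6 were higher in knockout cells than in control cells, those 5 and EZH1, against 38.4% of all genes, and the same 3 were lower against 36.8%. JARID2 was higher by 1.62 (standard error 0.0613) and PHF19 by 0.82 (standard error 0.0489) on the log2 scale. EZH1 and EZH2 were higher by 0.50 and 0.41 (standard errors 0.103 and 0.0422), and EED by 0.64 (standard error 0.0567). RBBP4 was lower by −1.21 (standard error 0.0489), SUZ12 by −0.46 and RBBP7 by −0.19 (standard errors 0.0481 and 0.0493). MTF2 had 0.17 (edgeR adjusted p = 0.00927), and without the third tunicamycin-treated control library 0.14 (edgeR adjusted p = 0.056). The 8 genes called with vehicle were called in the same direction with tunicamycin, in separate libraries of the same cells. How many of all genes tested kept their direction was not counted, so this is not a trait of these 8.

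XBP1 knockdown cells differed little from control cells with vehicle. None of the 10 genes was higher by edgeR's test, where 2.07% of all genes were, and 0 were higher at an unadjusted p under 0.05 or by DESeq2. PHF19 was lower, where 3.03% of all genes were lower, by a log2 fold change of −0.35 (standard error 0.0605, edgeR adjusted p = 0.00313), and it passed an FDR of 5% under every alternative tried (adjusted p = 1.59e-05 to 0.0259 by edgeR or DESeq2). EZH2 and JARID2 had values of 0.11 and 0.12 (standard errors 0.0576 and 0.062) whose library ranges did not overlap but which did not pass.

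With tunicamycin 3 genes were higher in knockdown than in control cells, JARID2 (0.23), RBBP7 (0.21) and EZH2 (0.17), against 6.99% of all genes, and 2 were lower, RBBP4 (−0.33) and PHF19 (−0.24), against 8.55%. RBBP4 (standard error 0.0489, edgeR adjusted p = 0.000276) was called in every fit with 1 library left out, and the other 4 were each lost in some. EZH2 was lost without the second or the third library of either tunicamycin-treated group (log2 0.14 to 0.18, edgeR adjusted p = 0.0628 to 0.0862), and so was JARID2 (0.16 to 0.27, edgeR adjusted p = 0.0675 to 0.189). By DESeq2 with all libraries JARID2 was not called either (0.23, DESeq2 adjusted p = 0.0556). PHF19 was lost without those libraries or the first tunicamycin-treated control library (−0.25 to −0.17, edgeR adjusted p = 0.0531 to 0.183). RBBP7 was lost without the third tunicamycin-treated control or the first tunicamycin-treated knockdown library (0.18 to 0.19, edgeR adjusted p = 0.0517 to 0.0797).

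The test of a different response to tunicamycin called 4 genes for knockout cells. JARID2 and PHF19 had a more positive response than in control cells, where 10.5% of all genes did, and EZH2 and RBBP4 a more negative one, where 12.4% did. For knockdown cells RBBP4 alone was called, with a more negative response, where 1.67% of all genes had one. None of the 10 had a more positive response by edgeR's test, where 0.364% of all genes did, and 0 did at an unadjusted p under 0.05 or by DESeq2.

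**Figure D4:**
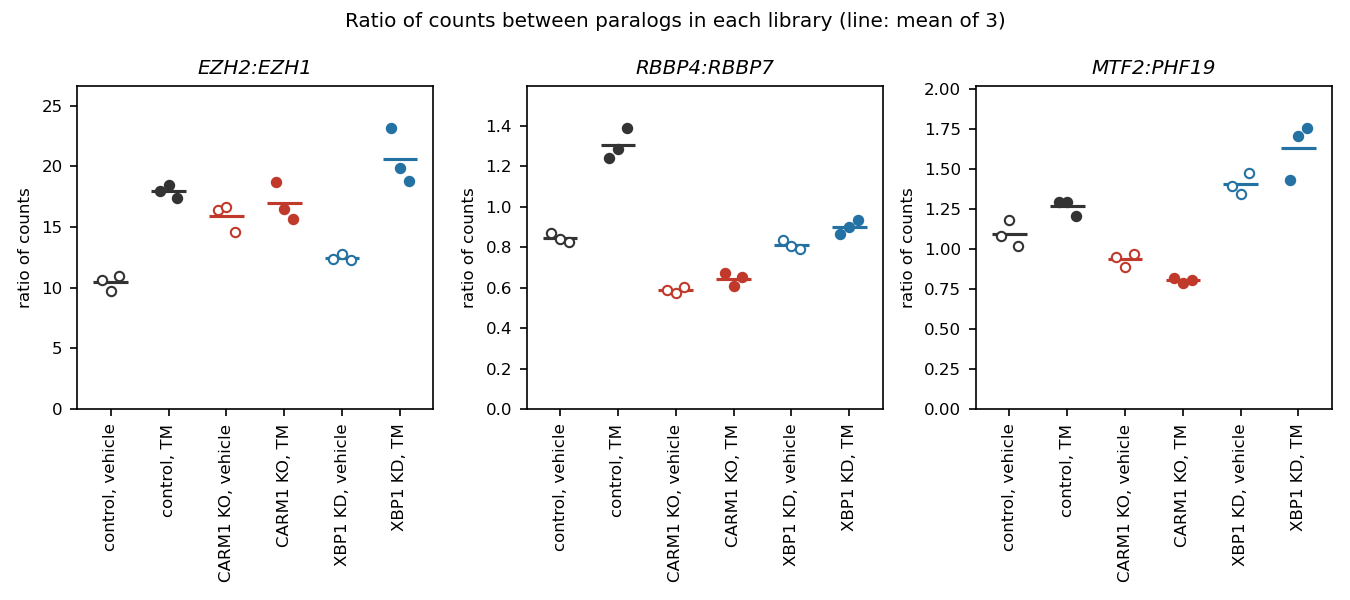
Ratio of the counts of 2 paralogs (y axes, from 0) in each library, by genotype and treatment (x axes; open points vehicle, filled points tunicamycin, lines group means). The ratio of RBBP4 to RBBP7 lies at 1.24 to 1.39 in tunicamycin-treated control cells and at or below 0.936 in all other libraries.

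Ratios of counts within a library do not depend on its scaling, and they compare groups, not the levels of the paralogs. In control cells the ratio of EZH2 to EZH1 was 10.5 ± 0.645 with vehicle and 17.9 ± 0.506 with tunicamycin (SD, n = 3 each). In knockout cells it was 15.9 ± 1.10 and 17.0 ± 1.60 (SD, n = 3 each), which overlapped, and in knockdown cells 12.5 ± 0.252 and 20.6 ± 2.27 (SD, n = 3 each), which did not. The ratio of RBBP4 to RBBP7 was 0.846 ± 0.0226 and 1.30 ± 0.0765 (SD, n = 3 each) in control cells with vehicle and with tunicamycin. It was 0.590 ± 0.0140 and 0.644 ± 0.0335 (SD, n = 3 each) in knockout cells and 0.810 ± 0.0234 and 0.900 ± 0.0366 (SD, n = 3 each) in knockdown cells, so that tunicamycin-treated control cells stood above all others. The ratio of MTF2 to PHF19 was 1.10 ± 0.0847 and 1.27 ± 0.0495 (SD, n = 3 each) in control cells and 1.41 ± 0.0676 and 1.63 ± 0.176 (SD, n = 3 each) in knockdown cells. In knockout cells it was 0.937 ± 0.0446 with vehicle and 0.805 ± 0.0158 with tunicamycin (SD, n = 3 each), below every control library.

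**Figure D5:**
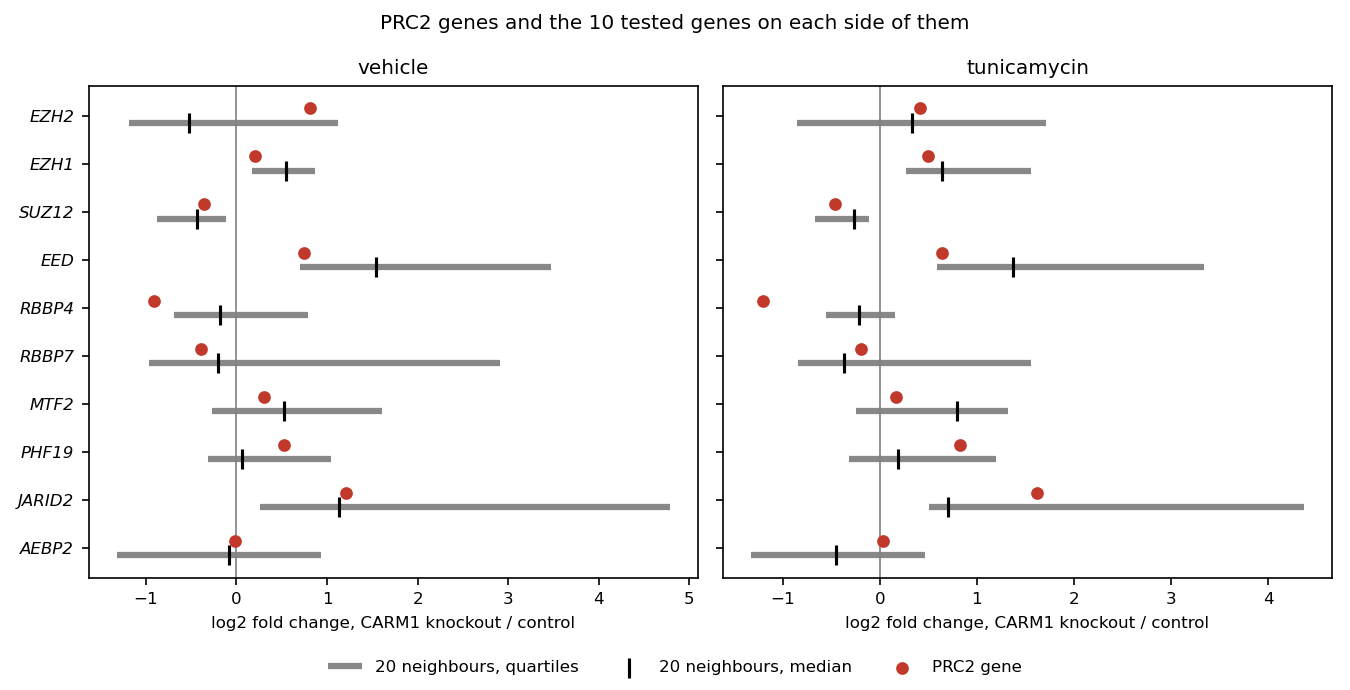
log2 fold change, CARM1 knockout over control cells (x axes), of each PRC2 gene (y axis, red points) and of the 10 tested genes on each side of it (black ticks, medians; grey bars, quartiles), with vehicle (left) and tunicamycin (right). JARID2 lies near the median of its neighbours with vehicle (1.21 and 1.14), whose quartiles are wide (0.26 and 4.79). RBBP4 lies below the lower quartile of its neighbours with both treatments.

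Since the knockout cells differed so widely, each gene was set beside the 10 tested genes before and after it on its chromosome. The neighbours of JARID2 had a median log2 fold change of 1.14 in knockout against control cells with vehicle, 14 higher and 3 lower of 20, and JARID2 itself had 1.21. Those of EED had a median of 1.54, with 16 higher and 1 lower, against 0.75 for EED. Those of SUZ12 had a median of −0.44, with 2 higher and 8 lower, against −0.36 for SUZ12. Those of MTF2 had a median of 0.53, with 12 higher and 5 lower, against 0.30 for MTF2. Of the 10 genes, EZH2 alone differed in sign from the median of its neighbours with vehicle. EZH2 had 0.81 where its neighbours had a median of −0.52 (8 higher, 11 lower), and RBBP4 had −0.92 where its neighbours had −0.18 (6 higher, 8 lower). With tunicamycin the neighbours of JARID2 had a median of 0.70 against 1.62 for JARID2, those of EED 1.37 against 0.64, those of SUZ12 −0.27 against −0.46 and those of MTF2 0.80 against 0.17. The median of the neighbours of EZH2 was then 0.34 against 0.41, and of those of RBBP4 −0.21 against −1.21. The quartiles of the neighbours of EZH2 were −1.19 and 1.12 with vehicle, so its own value lay within them. The neighbours of JARID2 had quartiles of 0.26 and 4.79 with vehicle, and those of EED 0.70 and 3.48, so nearness to a median says little. The part of the neighbourhood in these values was not tested.

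Other Polycomb genes were taken from lists named by function. Of 5 further PRC2 subunits, 3 were tested. All 3 were higher in knockout than in control cells with either treatment, where 37.5% of all genes were higher with vehicle and 38.4% with tunicamycin. With vehicle, PHF1, another Polycomb-like protein, had 0.90 (standard error 0.121) and LCOR 0.42 (standard error 0.0715) on the log2 scale.

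Polycomb repressive complex 1 (PRC1) ubiquitinates histone H2A and works beside PRC2, and 21 of 22 listed genes of it were tested. With tunicamycin 5 rose and 9 fell in control cells (22.0% and 19.9% of all genes), 6 and 4 in knockout cells (20.6% and 18.8%) and 5 and 6 in knockdown cells (19.2% and 19.0%). CBX2, a reader of the PRC2 mark, fell with a log2 fold change of −1.84 (standard error 0.0803) in control cells, −0.83 in knockout cells and −1.66 in knockdown cells. In knockout against control cells 4 were higher and 15 lower with vehicle (37.5% and 36.9% of all genes, list median −0.75, beside −0.03 for all genes) and 5 and 14 with tunicamycin (median −0.43, beside −0.02). With vehicle the highest was PCGF5 (4.26, standard error 0.207), with 7 to 21 counts in control and 152 to 223 in knockout libraries, and the lowest was CBX2 (−3.11, standard error 0.0982). BMI1, the best known partner of RING1 and RNF2, had −2.34 (standard error 0.0722) with tunicamycin. In knockdown against control cells 1 was higher and 1 lower with vehicle (2.07% and 3.03% of all genes), and 6 and 1 with tunicamycin (6.99% and 8.55%).

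Of 7 genes of H3K27 demethylases and of the PR-DUB deubiquitinase, 2 rose and 4 fell with tunicamycin in control cells, against 22.0% and 19.9% of all genes. KDM6B, a demethylase that removes the mark of PRC2, rose by a log2 fold change of 1.56 (standard error 0.147) in control cells and 1.71 (standard error 0.167) in knockdown cells. It had 50 to 146 counts in control libraries and 1 to 21 in knockout libraries. In knockout against control cells 2 of the 7 were higher and 4 lower with vehicle (37.5% and 36.9% of all genes), and 3 and 4 with tunicamycin (38.4% and 36.8%). The demethylase KDM6A had −1.63 (standard error 0.115) and BAP1, the catalytic subunit of PR-DUB, 0.77 (standard error 0.0784) with vehicle.

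Of 37 genes, most of them developmental, known as PRC2 targets in other cells, 23 were tested, and the other 14 had at most 14 counts in any library. In knockout against control cells 11 were higher and 11 lower with vehicle (37.5% and 36.9% of all genes), and 11 and 9 with tunicamycin (38.4% and 36.8%). CDX2 had 0 to 2 counts in control and 109 to 167 in knockout libraries, and LHX2 0 to 2 and 115 to 295. CCND2 had 14857 to 28219 counts in control and 1 to 91 in knockout libraries, and ISL1 1948 to 2722 and 25 to 52. With tunicamycin 3 of the 23 rose and 4 fell in control cells (22.0% and 19.9% of all genes), 3 and 6 in knockout cells (20.6% and 18.8%) and 6 and 4 in knockdown cells (19.2% and 19.0%). In knockdown against control cells 3 were higher and 3 lower with vehicle (2.07% and 3.03% of all genes), and 8 and 2 with tunicamycin (6.99% and 8.55%). PAX6 was the highest of them with either treatment, at 0.95 (standard error 0.149) and 1.30 (standard error 0.133). GATA3 had 19 to 48 counts in control and 3 to 14 in knockdown libraries.

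EZH2 and the genes of the cell cycle moved in opposite directions with tunicamycin. EZH2 is known as a target of the E2F factors that drive DNA replication genes. Of 17 cell-cycle genes, all tested, 16 fell with tunicamycin in control cells (19.9% of all genes), 13 fell and 1 rose in knockout cells (18.8% and 20.6%), and 17 fell in knockdown cells (19.0%). Their median log2 fold change was −0.58, −0.27 and −0.55 in that order, beside 0.86, 0.43 and 0.89 for EZH2. The summed level of the 17 genes was 4228 to 4342 CPM with vehicle and 3182 to 3315 CPM with tunicamycin in control cells, 4388 to 4424 and 3649 to 3689 in knockout cells, and 3811 to 3908 and 2885 to 2907 in knockdown cells. E2F2 had a log2 fold change of −1.51 (standard error 0.107) in control cells, and PCNA, the sliding clamp of DNA polymerase, had −1.18 (standard error 0.0619) in knockdown cells. In the test of a different response, 10 of the 17 had a less negative response in knockout than in control cells (10.5% of all genes, list median 0.39, beside −0.01 for all genes).

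The genes most like EZH2 over the 18 libraries were sought among the 9524 genes whose log2 CPM averaged 3 or more, by the root mean square difference of log2 CPM after centring each gene. They were SLU7 (0.078), SPOP (0.088), RAB3GAP1 (0.095), SNHG29 (0.104) and EAPP (0.112). The nearest of the other PRC2 genes to EZH2 was EZH1, at 0.339 and rank 818. The genes most like EZH1 were AASDH (0.106), RFC1 (0.114), NOC3L (0.117), RBM33 (0.121) and BOD1L1 (0.123). The nearest PRC2 gene to EZH1 was MTF2, at 0.26 and rank 1410. The 18 points share 6 groups, and this likeness is a description.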

How the data were processed

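RNA was measured in 18 libraries of cells labelled A1847. The authors prepared libraries of mRNA 3′ ends (75 nt single reads), aligned them with bowtie2 to hg19 and used RSEM for expected counts of Ensembl genes. They deposited these counts as whole numbers without normalization. The submitters' processing notes give RSEM 1.2.3, and the study's methods name another version. The Ensembl release is not given in the sources used here.

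Groups follow the labels, and 0 columns were left unmapped. Library totals were 9367462 to 13917212 (median 12899158), and replicate pairs differed by more than counting error (chi-square per degree of freedom 1.84 to 6.89 over 18 pairs), so precision was taken from the replicates. With R 4.3.3 and edgeR 4.0.16, genes passing filterByExpr (minimum count 10) over all libraries were scaled by TMM and compared with quasi-likelihood tests on the compared groups alone, Benjamini-Hochberg adjusted over all 17317 genes, at an FDR of 5%. Interactions were fitted over 4 groups. Each standard error is the size of a log2 fold change over the root of its F statistic. The log2 CPM values used a prior count of 2. With 3 libraries against 3, the smallest p of an exact permutation test is 0.1, so no such test was run. Scripts were tested on simulated data. Alternatives were DESeq2 (1.42.0), its size factors, no filter, a joint fit of all groups, a minimum of 10 counts in every library, an FDR of 1%, a replicate block and each library left out.

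The members and lists were chosen with earlier results of these data known. Named were the members, CARM1, XBP1, SUZ12P1, from the other lists at most the 2 highest and 2 lowest called genes per comparison, and the 5 genes most like EZH2 and EZH1. MUC16, WT1, ESR1, EPCAM, SYNC and TXLNG were chosen after their values were seen. The same replicate numbers did not pair the libraries, since their deviations from the group means correlated at −0.0513 to 0.0451 over 33 pairs. Proteins, histone marks and CUT&RUN data were not analysed here.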

Additional observations from a re-analysis of the deposited data

Results flagged for a closer look

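In 5 cases the response of a PRC2 gene to tunicamycin differed between genotypes by the interaction term of edgeR's quasi-likelihood test. For CARM1 knockout against control cells the log2 difference in response was −0.449 for EZH2, −0.338 for RBBP4, 0.252 for PHF19 and 0.369 for JARID2. For XBP1 knockdown against control cells it was −0.361 for RBBP4. The knockout and knockdown tests share the 6 control libraries. The call for PHF19 was lost without the first vehicle-treated knockout library, and the others held without any single library. The wide differences between knockout and control libraries in marker genes stand beside the first 4, and their part was not tested. Groups of 3 libraries were too small for a search for outlying samples.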

How the results depend on the processing

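Of the 18 counts of PRC2 genes called, in 9 comparisons and 2 directions, none moved by more than 1.5 times under DESeq2, its size factors, no filter, a joint fit of all groups, a minimum of 10 counts in every library or a replicate block. At an FDR of 1%, the genes that fell with tunicamycin in control cells were 2 in place of 4, those higher in tunicamycin-treated knockdown than control cells 0 in place of 3, those lower 1 in place of 2, and those with a more positive response in knockout cells 1 in place of 2. With 1 library left out, these 4 counts ranged from 2 to 4, 0 to 3, 1 to 2 and 1 to 3. For single genes, 28 of 660 fits with 1 library left out lost a call and 5 gained one, and of 540 other refits 8 lost and 5 gained one. None turned the direction of a called gene. RBBP4 with tunicamycin in knockout cells failed in each of the 6 settings that refit it with all libraries, with edgeR or DESeq2 adjusted p of 0.0532 to 0.161. EZH1 in vehicle-treated knockout cells passed in the joint fit (0.25, edgeR adjusted p = 0.043), and RBBP7 passed the interaction in knockout cells without a filter (0.23) or with at least 10 counts in every library (0.22). RBBP7 also passed that interaction in 3 fits that left out 1 control library (log2 0.225 to 0.276, edgeR adjusted p = 0.00519 to 0.0471). The replicate block, with numbers that did not pair the libraries, lost 2 calls, RBBP4 with tunicamycin in knockout cells (0.12, edgeR adjusted p = 0.0629) and JARID2 in tunicamycin-treated knockdown cells (0.23, edgeR adjusted p = 0.0507), and changed no other call of these genes. Over all genes, the interaction for knockout cells gave 1814 higher and 2151 lower, 2375 and 1745 without a filter, and 2281 and 1710 with at least 10 counts in every library. Calls for vehicle-treated knockdown cells were 359 and 524, 632 and 746 without a filter, and 696 and 724 in the joint fit, and for the interaction in knockdown cells 63 and 290, and 263 and 469 without a filter. Depth limits EZH1 and AEBP2 most. The cause of these changes was not tested.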
